A study of Mus musculus with 9 samples.

Results

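The histone genes of this single-cell study of the mouse thymus were taken as every gene whose name starts with Hist1h, Hist2h, Hist3h or Hist4h, which gave 67 of the 31053 genes counted. By name they comprised 6 genes for the linker histone H1, 18 for H2A, 18 for H2B, 12 for H3 and 13 for H4. H2A, H2B, H3 and H4 form the protein core around which DNA is wound, and H1 binds where the DNA enters and leaves that core. Most of these genes are replication dependent: a cell makes their mRNA in large amounts during S phase, when new DNA has to be packaged, and degrades it when DNA synthesis stops. Their mRNAs usually end in a stem-loop bound by the protein SLBP and carry no poly(A) tail, whereas the replacement histones (for example H3f3b and H2afz, which are not members here) are made throughout the cell cycle as polyadenylated mRNA. In the thymus, double-positive (DP) thymocytes arise from a burst of division and then stop dividing while they rearrange the T-cell receptor alpha chain, and a minority go on to become CD4 or CD8 single-positive (SP) cells.

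Thymocytes of adult female mice, wild type (WT) or carrying the I173A form of CD3ε, a signalling chain of the T-cell receptor complex, were marked with antibody hashtags, sorted as CD4 SP, CD8 SP or DP, and run as 1 droplet library of 5′ RNA per gate. Cells with Hashtag 4 were counted as WT and cells with Hashtag 6 as I173A. The labels do not say how many mice were pooled behind each hashtag or whether the I173A change was made in the germline, and they name no other allele or treatment. Each gate and genotype is therefore 1 sample: no difference below has a replicate check, no test was made, and all intervals are exact 95% intervals for counted unique molecular identifiers (UMIs), which cover counting error only. After filtering, the WT and I173A cells numbered 3109 and 2664 in the CD4 gate, 3017 and 2872 in the CD8 gate, and 2516 and 2706 in the DP gate, with between 8659807 and 22544044 UMIs per group. Because each gate is 1 library, gate and library cannot be told apart, while WT and I173A cells of a gate shared a library. Between 1.26% and 1.37% of cell barcodes recurred between libraries. Defining T-cell markers were present in every gate, and summed B-cell, macrophage or dendritic, stromal and erythroid marker levels stayed at or below 518 CPM (counts per 1000000 UMIs) in noncycling WT cells. The members lie in the compact histone clusters of the mouse genome, 54 on chromosome 13 (Hist1; 53 with a single RefSeq entry), 10 on chromosome 3 (Hist2), 2 on chromosome 11 (Hist3) and 1 on chromosome 6 (Hist4).

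Neighbouring H2A and H2B genes are often read in opposite directions from one short shared promoter. The 180 bases before the RefSeq start of 4 members (GRCm38.p6) are shown because the results below turn on them: Hist1h2ac and Hist1h2bg had among the lowest I173A over WT ratios in noncycling cells, Hist3h2ba was higher in noncycling than in cycling DP cells, and Hist1h1b was the H1 gene with the most UMIs. Sequences are written 5′ to 3′ on the gene's own strand, and capitals mark every match, on either strand, to TATAAA (the TATA box), CCAAT, ATTTGCAT (the octamer) or AAACACA (the H1 box). No marked match overlapped another.
Hist1h2ac (chr13:23683960-23684139, minus strand): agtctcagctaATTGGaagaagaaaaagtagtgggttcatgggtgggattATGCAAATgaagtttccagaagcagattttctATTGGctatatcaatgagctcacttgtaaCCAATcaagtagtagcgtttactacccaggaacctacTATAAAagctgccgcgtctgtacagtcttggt
Hist1h2bg (chr13:23571220-23571399, plus strand): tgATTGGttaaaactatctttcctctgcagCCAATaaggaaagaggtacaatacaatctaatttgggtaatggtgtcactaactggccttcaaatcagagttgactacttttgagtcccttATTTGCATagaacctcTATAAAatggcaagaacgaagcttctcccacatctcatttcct
Hist3h2ba (chr11:58948731-58948910, plus strand): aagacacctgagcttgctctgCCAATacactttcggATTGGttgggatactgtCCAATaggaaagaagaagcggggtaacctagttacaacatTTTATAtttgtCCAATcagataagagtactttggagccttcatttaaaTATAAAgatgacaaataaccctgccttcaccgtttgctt
Hist1h1b (chr13:21780626-21780805, minus strand): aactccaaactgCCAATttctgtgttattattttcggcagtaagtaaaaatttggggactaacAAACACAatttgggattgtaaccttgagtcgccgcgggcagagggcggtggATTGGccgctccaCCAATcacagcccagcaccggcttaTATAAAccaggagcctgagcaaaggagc

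Of the 67 members, 61 had a promoter in the RefSeq table (250 bases before to 50 after the start). Within that window CCAAT or its reverse complement occurred in 52 of the 61 (85.2%), against 37.9% of all 27025 genes with a promoter, and TATAAA in 35 (57.4%), against 14.2%. By class, CCAAT was found in all 17 H2A, 16 H2B, 10 H3 and 6 H1 promoters but in 3 of 12 H4 promoters. The octamer was found in 7 H2A and 6 H2B promoters and in none of the other 3 classes (21.3% of members, against 1.75% of all genes). AAACACA was found in 5 of 6 H1 promoters, against 7.14% of all genes. Such a match describes letters in a window and does not show that a factor binds there. The promoters counted are also not all separate stretches of DNA. H2A and H2B neighbours with starts in opposite directions, 164 to 281 bases apart, share part of the window, so 1 site can count for both. Hist1h2ae and Hist1h2bg, 180 bases apart, both count for the octamer.

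All but 2 members, Hist1h2aa and Hist1h2ba, had UMIs in WT or I173A cells, 583697 in all. H2A genes held 49.0% of them, H1 genes 25.1%, H4 genes 8.97%, H3 genes 8.81% and H2B genes 8.12%. A single H2A gene, Hist1h2ap, held 26.3%, and the 5 members with the most UMIs (Hist1h2ap, Hist1h1b, Hist1h2ae, Hist1h1e and Hist1h1d) held 51.5%. Hist1h2ap matches 2 RefSeq genes, so it was given neither a position nor a length. For the other members with a RefSeq span under 1000 bases, the level averaged over the 6 groups was also divided by the span. The highest were Hist1h2ae at 832 CPM per kb, Hist1h4d at 676, Hist1h1b at 604 and Hist1h1e at 568. A UMI counts a molecule whatever its length, so this scaling favours short genes. Histone genes of a class are near-identical copies, and the labels and notes do not say how reads that fit several copies were treated. The share of any single member is therefore uncertain, and so is that of its class if such reads were left out. The libraries captured poly(A) RNA, per the labels, so the histone mRNA counted here is the part that was captured that way.

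Cells were divided into cycling and noncycling by clusters built without any histone gene. Clusters 7, 12, 15 and 20, each with at least 3 of 27 cycling markers at 2-fold or more over the other cells, were called cycling-like. Their leading genes included Rrm2 and Pclaf (cluster 7, which Gzma also led), Birc5, Cdk1 and Top2a (12), Mki67 (15), and Ccnb2 and Cdc20 (20). Noncycling DP cells of WT mice had a far higher histone level than noncycling SP cells. Their summed level was 7737 CPM (7667 to 7808), against 716 CPM (704 to 729) in the CD4 gate and 729 CPM in the CD8 gate, a 10.8-fold and 10.6-fold (10.4 to 10.8) higher level. I173A cells had the same order, at 6556 CPM in the DP gate, 640 CPM in the CD4 gate and 702 CPM in the CD8 gate. H2A genes differed most, at 3079 CPM in WT DP cells against 160 CPM in CD4 cells (19.2-fold) and 193 CPM in CD8 cells (16.0-fold). For H1 the DP and CD4 levels were 1905 and 240 CPM, for H2B 988 and 103 CPM, for H3 809 and 73.9 CPM, and for H4 957 and 140 CPM, from 6.85-fold to 10.9-fold apart. Counting members whose mean level in the compared groups was at least 5 CPM, all 55 were 1.5-fold or more higher in DP than in CD4 cells, where 32.9% of 9393 genes were, and all 54 in DP than in CD8 cells, where 46.0% of 9367 were. Members at a low level in SP cells reached 5 CPM through the DP group, so these counts describe the members and carry no further weight. The median over all genes was itself shifted by 0.33 (CD4) and 0.51 (CD8) on the log2 scale, against 3.68 and 3.61 for the members. Because each gate is 1 library, this difference between gates cannot be told apart from one between libraries. Macrophage or dendritic-like cells of the DP library also had a high histone level, as described below.

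**Figure D1:**
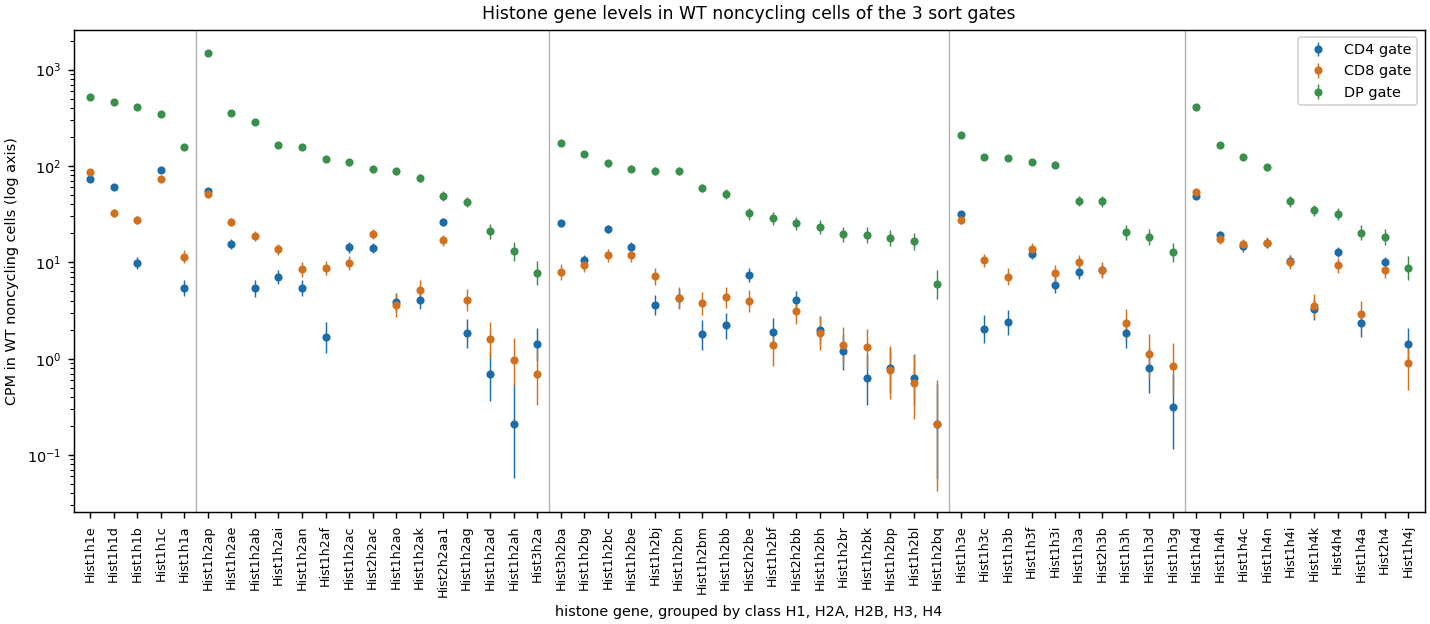
Level of each histone gene with at least 5 CPM in WT noncycling DP cells, in CPM on a log axis, by sort gate (colour), with genes grouped by class and bars giving exact 95% counting intervals; genes with no UMI in a gate have no point there. Every gene shown was higher in the DP gate (green), from 6.00 CPM for Hist1h2bq to 1489 CPM for Hist1h2ap.

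Hist1h2ap stood at 1489 CPM in WT noncycling DP cells, 54.5 CPM in CD4 cells and 51.5 CPM in CD8 cells. Hist1h1e, an H1 gene, was at 524, 72.9 and 86.6 CPM, and Hist1h1c, another H1 gene, at 346, 91.4 and 74.0 CPM. Hist1h1c was the member with the highest level in noncycling CD4 cells, where it exceeded Hist1h2ap, while in DP cells it was below it. Hist1h4d, the H4 gene with the most UMIs, was at 407, 48.5 and 53.8 CPM, and the H3 gene Hist1h3e at 209, 31.6 and 27.4 CPM. Histone UMIs were found in nearly every DP droplet. Per 10000 UMIs of a cell, the 5th percentile of WT noncycling DP cells was 30.8 histone UMIs and the median 73.5, against medians of 5.94 in CD4 and 6.47 in CD8 cells. With each cell thinned to 1500 UMIs (308 shallower DP, 47 CD4 and 49 CD8 cells left out), 99.8% of DP cells had a histone UMI, against 60.7% and 63.9%, and the medians were 10 UMIs against 1 and 1. Before thinning every DP cell had one, as did 93.4% of CD4 and 94.6% of CD8 cells, at median depths of 2666, 6006 and 5329 UMIs per cell. The 43 macrophage or dendritic-like cells of the DP library, described below, had nearly the same per-cell level, with a median of 69.7 per 10000 UMIs at a median depth of 3015 UMIs and a histone UMI in all 33 cells left after thinning. These shares and medians therefore do not show that each DP cell expressed the genes. WT noncycling DP cells with no UMI of 7 proliferation genes, Mki67 and Top2a among them, were at 7628 CPM.

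The 2 SP gates had close histone sums in noncycling WT cells, with a CD8 over CD4 ratio of 1.02 (0.992 to 1.04), but some members and classes differed. The noncycling CD8 cells include the S-high cluster 13 (211 WT cells), and all 34 S phase genes at the floor were higher in CD8 than in CD4 cells, 29 of them by 1.5-fold or more, with a median of 1.28 on the log2 scale against -0.17 over all genes. The part of this shift in the member differences was not tested. WT CD4 cells with S phase genes but few G2/M genes (22 cells of phase group G, described below) were instead counted as cycling. H2B genes were lower in CD8 cells, 75.5 against 103 CPM (ratio 0.732, 0.679 to 0.788), and H2A and H3 genes higher (ratios 1.21 for both classes). Hist3h2ba, an H2B gene, was at 7.96 CPM in CD8 and 25.4 CPM in CD4 cells. Hist1h1b ran the other way, at 27.5 and 9.81 CPM, and so did Hist1h2af, an H2A gene, at 8.79 and 1.69 CPM. Of 33 members at 5 CPM or more, 9 were 1.5-fold or more higher in CD8 cells and 5 lower, where 5.09% and 12.8% of 9051 genes were.

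The histone level also moved with the library. WT cells of cluster 2, led by Rag1, Rag2 and Tctex1d1, stood at 7476 CPM in the DP library (947 cells) and at 2965 CPM in the CD4 library (22 cells), with Rag1 at 1642 and 1866 CPM. WT cells of cluster 3, led by Itm2a and Cd40lg, stood at 791 CPM in the CD4 library (924 cells) and at 2910 CPM in the DP library (33 cells), with Rag1 at 1.72 and 55.0 CPM. A small cluster led by H2-Aa, Lyz2 and C1qa, called macrophage or dendritic-like, was at 733 CPM in the CD4 library (22 cells), 2145 CPM in the CD8 library (23 cells) and 11913 CPM in the DP library (43 cells). Its Rag1 level in the DP library was 674 CPM, against 1508 CPM in WT noncycling DP cells, and 0 CPM in the other libraries. The 7 B-cell markers moved the same way, at 518 CPM in noncycling WT cells of the DP gate (3 of 7 at 0 over all WT cells), 166 CPM in the CD8 gate and 74.9 CPM in the CD4 gate. The part of free RNA, mixed droplets or the sort in the difference between gates was not tested.

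Cycling cells had the highest histone levels in every gate. The WT sums were 31614 CPM in cycling DP cells, 19423 CPM in CD8 cells and 14137 CPM in CD4 cells, which was 4.09-fold, 26.6-fold and 19.7-fold the noncycling level of the same gate. The cycling class was not alike in the SP gates. Per 10000 UMIs, the 25th percentile and median of WT cycling CD4 cells were 7.37 and 25.4 histone UMIs, against 60.0 and 177 in CD8 cells. The CD4 class held 22 WT cells of phase group G, described below, at 642 CPM, whereas cluster 13 of the CD8 gate counts as noncycling. Of the members at 5 CPM or more, 57 of 62 were 1.5-fold or more higher in cycling DP cells (16.1% of 9386 genes were), 57 of 57 in CD8 cells (21.1% of 9097) and 55 of 57 in CD4 cells (14.4% of 9261). Many of these SP members were under 5 CPM in noncycling cells and reached it through the cycling group, so these counts too are descriptions only. In the DP gate Hist1h2ap was at 9805 CPM in cycling and 1489 CPM in noncycling cells. The members did not keep 1 ratio: in WT DP cells the ratios ran from 0.496 for Hist3h2a to 14.3 for Hist1h2ah. The 3 members with ratios below 1 all lay at the smaller loci and none in the Hist1 cluster: the H2A gene Hist3h2a (3.88 against 7.83 CPM), its H2B neighbour Hist3h2ba (105 against 175 CPM, ratio 0.602) and the H2B gene Hist2h2be (26.4 against 32.2 CPM, with an interval of 0.644 to 1.05).

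The cycling cells, with 1 further CD8 cluster (13) that was high in S phase genes but not in cycling markers, were divided into 7 groups by their S phase and G2/M genes alone, again without histone genes. Group A (516 cells), with 9442 CPM of the 38 S phase genes and 18671 CPM of the 52 G2/M genes, had the highest histone level, 36698 CPM. Group B (432 cells), with 4364 and 28616 CPM of these lists, was at 27068 CPM. Groups C (481 cells) and D (288 cells) were at 14335 and 13088 CPM, and group D had a median of 3576 UMIs per cell against 15250 in group A. Group E (400 cells) was close to group A in S phase genes, at 9010 CPM, but had 9578 CPM of G2/M genes and a histone level of 7195 CPM. Group F (182 cells), with 769 CPM of S phase genes and the highest Ccnb2 level of the 7, was at 3628 CPM. Group G (546 cells), with 3829 CPM of S phase genes and 2135 CPM of G2/M genes, had 676 CPM of histone mRNA, below the noncycling SP level of WT cells in both gates. Slbp, which codes for the stem-loop binding protein, was highest in group A at 733 CPM and lowest in group F at 46.8 CPM. Within group A, DP cells were at 52120 CPM, CD8 cells at 28904 CPM and CD4 cells at 32320 CPM. Hist1h2ap was at 10952 CPM in group A and 901 CPM in group F, while Hist1h2bc was at 198 and 189 CPM and Hist2h2be at 8.43 and 26.3 CPM.

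**Figure D2:**
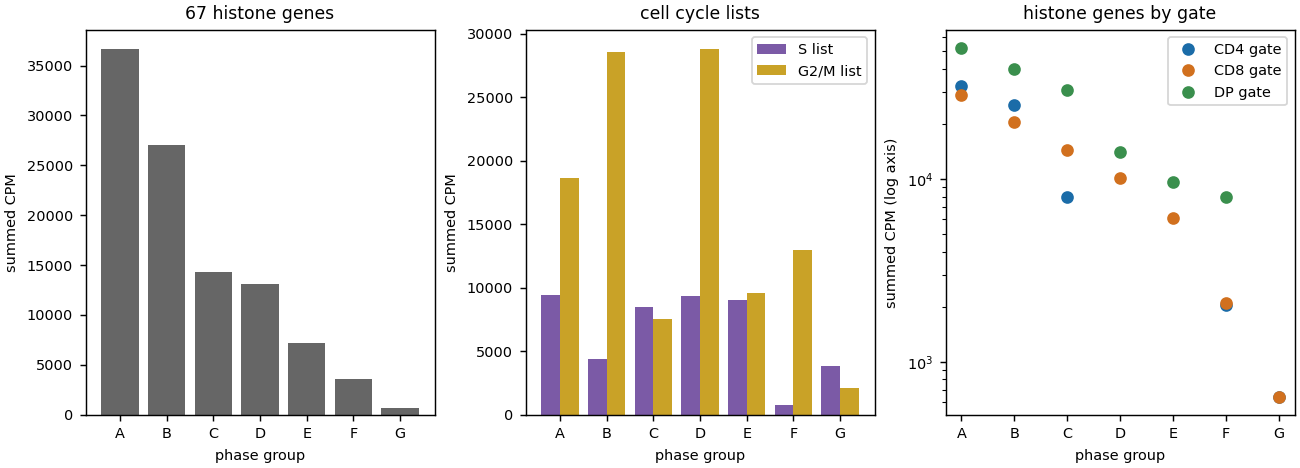
Summed level in CPM of the 67 histone genes (left), of the S phase and G2/M gene lists (middle) and of the histone genes by sort gate on a log axis (right) in the 7 groups of cycling and S-high cells, all hashtags together; gates with fewer than 20 cells in a group are not drawn. Histone level was highest in groups A and B and lowest in group G, and the DP points lie above the CD8 points in groups A to F.

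In noncycling DP cells the histone level was lower with I173A. The sum was 7737 CPM in WT and 6556 CPM in I173A cells, a ratio of 0.847 (0.837 to 0.858). Of 57 members at 5 CPM or more, 56 had a ratio below 1, in a range of 0.519 to 1.09 with a median of -0.23 on the log2 scale, against 0.02 over all 9356 genes. The interval lay below 1 for 29 members and above 1 for none, where 6.96% and 10.6% of all genes did, and 8 were 1.5-fold or more lower, where 0.780% were. All 4 clusters that held most of these cells gave a ratio below 1: 0.870 (0.855 to 0.886) in cluster 2, 0.847 in cluster 4, 0.842 in cluster 6 and 0.837 (0.803 to 0.873) in cluster 11. Cluster 3, with 33 WT and 45 I173A cells in this gate, was at 1.29 (1.14 to 1.46). The lower level was found over the range of cells, with medians of 73.5 and 63.7 histone UMIs per 10000 and 95th percentiles of 180 and 144. Median depth was 2666 UMIs per cell in WT and 2701 in I173A cells, and the 27 cycling markers summed to 1212 and 1130 CPM.

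H2B and H2A genes had the lowest class ratios in that comparison, 0.774 (0.747 to 0.803) and 0.807 (0.791 to 0.824), with H1 at 0.892 (0.870 to 0.915), H4 at 0.908 and H3 at 0.912. All 17 H2B genes at the floor were lower in I173A cells, 12 of them with an interval below 1. Hist1h2bg was at 134 CPM in WT and 82.2 CPM in I173A cells, a ratio of 0.613 (0.550 to 0.682). Hist1h2ap, the most abundant member, was at 1489 and 1102 CPM (0.740), and Hist1h2ae at 358 and 278 CPM (0.775). The H2A sums were 3079 and 2485 CPM, so the H2A class ratio leans on Hist1h2ap. The lowest ratios belonged to Hist3h2a (7.83 and 4.07 CPM, 0.519), Hist1h2ac (109 and 61.7 CPM, 0.567) and Hist1h2bl (16.5 and 9.36 CPM, 0.567). The highest were those of Hist2h2aa1 (49.0 and 53.5 CPM, 1.09, 0.935 to 1.27), Hist1h3c (0.995) and Hist1h4a (0.994), and all 3 of their intervals held 1. The H1 genes lay close together, from 0.844 for Hist1h1d to 0.941 for Hist1h1c, and Hist1h4d was at 407 and 396 CPM (0.972).

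**Figure D3:**
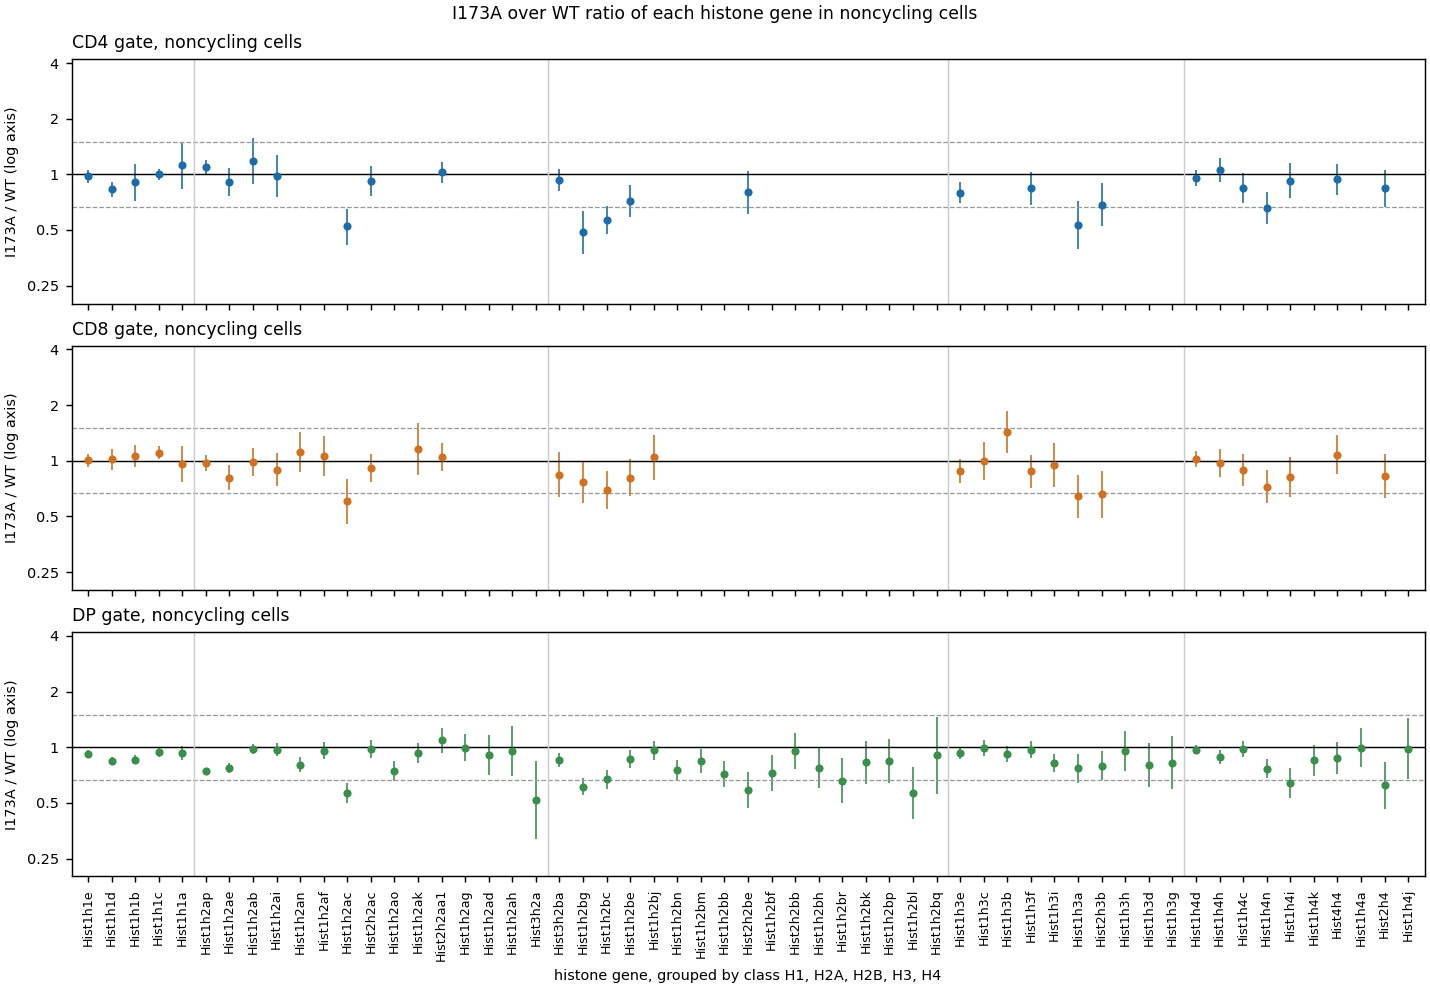
I173A over WT ratio of CPM on a log axis for the histone genes in noncycling cells of each gate, grouped by class, with exact 95% counting intervals; genes under 5 CPM in a gate are not drawn there, the solid line marks 1 and the dashed lines 1.5-fold. In the DP gate 56 of 57 members lie below 1, and Hist1h2ac and Hist1h2bc lie below 1 with their whole interval in all 3 gates.

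In noncycling SP cells the sums differed less. The CD4 sum was 716 CPM in WT and 640 CPM in I173A cells, a ratio of 0.893 (0.870 to 0.917), and 0.846 without the single cell with the most histone UMIs in each group. Cluster 8, led by Xcl1 and Lad1, went against the CD4 sum, at 593 CPM in 221 WT and 914 CPM in 245 I173A cells (1.54, 1.42 to 1.68). This ratio was not recomputed without the top cell of each group. Hist1h2ac, Hist1h2bg, Hist1h2bc and Hist1h2bn, the only members computed by cluster, lay below 1 there. Their ratios ran from 0.483 to 0.630, with intervals that held 1. The CD8 sums were 729 and 702 CPM, a ratio of 0.962 (0.936 to 0.989). In the CD4 gate 5 of 28 members were 1.5-fold or more lower (0.383% of 9137 genes were) and none higher (0.865%), and in the CD8 gate 3 of 34 were lower (0.292% of 8904 genes) and none higher (0.651%). The interval lay below 1 for 9 members in the CD4 gate (8.58% of genes) and above 1 for none (18.9%), and in the CD8 gate below 1 for 6 (8.12%) and above 1 for 2 (12.4%). In CD4 cells Hist1h2bg had the lowest ratio, 0.487 (10.5 and 5.11 CPM), and Hist1h2ab (1.19), Hist1h1a (1.12) and Hist1h2ap (1.09) the highest, each with an interval that held 1. In CD8 cells the H3 gene Hist1h3b had the highest ratio, 1.43 (1.11 to 1.86), at 7.13 and 10.2 CPM, followed by Hist1h2ak (1.16) and Hist1h2an (1.12). The one member with its interval above 1 in one gate and below 1 in another was Hist1h1c, at 1.11 (1.02 to 1.20) in CD8 cells and 0.941 in DP cells.

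A set of 5 members lay below 1 with their whole interval in all 3 gates, out of 27 at 5 CPM or more in each, where 1.58% of 8357 genes did: Hist1h2ac, Hist1h2bc, Hist1h3a, Hist2h3b and Hist1h4n. No member lay above 1 in all 3, where 2.24% of genes did. Hist1h2ac, an H2A gene, was at 14.3 CPM in WT and 7.47 CPM in I173A cells of the CD4 gate (0.523, 0.417 to 0.652), at 9.83 and 5.93 CPM in the CD8 gate (0.603, 0.456 to 0.794) and at 109 and 61.7 CPM in the DP gate (0.567, 0.502 to 0.640). Hist1h2bc, an H2B gene, was at 22.1 and 12.5 CPM (0.565), 11.9 and 8.27 CPM (0.695) and 107 and 71.4 CPM (0.670) in the same order. In each gate the I173A value of both genes was below the WT value by more than counting error. Hist1h3a, an H3 gene, had ratios of 0.533, 0.644 and 0.770, Hist2h3b, another H3 gene, 0.686, 0.659 and 0.795, and the H4 gene Hist1h4n 0.658, 0.725 and 0.766. Within the DP clusters, Hist1h2ac was at 0.684 in cluster 2, 0.443 in cluster 4, 0.787 (0.469 to 1.32) in cluster 6 and 0.438 in cluster 11. In cycling DP cells Hist1h2ac was instead higher in I173A cells, 337 against 250 CPM.

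Hist1h2ac (chr13:23683473-23683959) and Hist1h2bc (chr13:23684199-23692480) are neighbours whose spans lie 240 bases apart, and the promoter printed for Hist1h2ac covers most of that gap. Strand could be read for 8 other detected H2A and H2B pairs that start in opposite directions under 500 bases apart. In 6 of these 8 pairs the H2B gene had the lower I173A over WT ratio in noncycling DP cells. Hist1h2ac and Hist1h2bc lie outside this count, and there the H2B gene had the higher ratio. Hist1h2bg, whose promoter is printed above, starts 180 bases from Hist1h2ae, and their ratios were 0.613 (0.550 to 0.682) and 0.775 (0.729 to 0.824). Hist1h2bl and Hist1h2ai, 229 bases apart, were at 0.567 (0.411 to 0.779) and 0.971 (0.891 to 1.06). In the rest of those 6 pairs the intervals of the neighbours overlapped. Hist1h2bj, for example, was at 0.962 (0.856 to 1.08) and Hist1h2ag at 0.993 (0.838 to 1.18). Hist1h2ao (0.741) and Hist1h2bq (0.904, 0.562 to 1.46) had the opposite order, with overlapping intervals. So did Hist1h2an (0.805, 0.735 to 0.882) and Hist1h2bp (0.844, 0.642 to 1.11). The difference within pairs was not tested.

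Over all cells of a gate, the histone sum was lower with I173A in the DP and CD8 gates and slightly higher in the CD4 gate. The share of cycling cells was lower with I173A in all 3 gates, and its part in the sums was not tested. In the DP gate it was 17460 CPM in WT and 11270 CPM in I173A cells, a ratio of 0.645 (0.640 to 0.651), with 15.4% and 4.69% of cells cycling. In the CD8 gate it was 7439 and 4213 CPM, 0.566 (0.561 to 0.571), with 16.0% and 8.43% cycling. In the CD4 gate it was 1751 and 1876 CPM, 1.07 (1.06 to 1.09; 0.879 when every cell was given the same weight), with 3.25% and 2.48% cycling. Cycling cells held 73.7% of WT and 50.5% of I173A histone UMIs in the DP gate, 93.7% and 86.3% in the CD8 gate, and 62.2% and 68.2% in the CD4 gate. Of members at 5 CPM or more, 35 of 60 were 1.5-fold or more lower in I173A DP cells (5.48% of 9448 genes were), 50 of 55 in CD8 cells (4.83% of 9123) and 1 of 48 in CD4 cells (0.325% of 9243), and 4 of these 48 were higher (0.811%). Hist1h3g (0.385), Hist1h4b (0.428) and Hist2h4 (0.444) had the lowest DP ratios and Hist3h2ba (0.978, 0.906 to 1.06) the highest. In the CD8 gate Hist1h3d (0.361), Hist1h1a (0.405) and Hist1h4b (0.409) were lowest, and Hist1h3g (0.748), Hist1h1c (0.733) and Hist2h2aa1 (0.706) highest. In the CD4 gate Hist1h2ac (0.650), Hist1h2bc (0.683) and Hist1h2bg (0.706) were lowest. The H3 genes Hist1h3h (2.33), Hist1h3b (1.85) and Hist1h3g (1.57) were highest there, and a single I173A cell held 51.3%, 38.6% and 54.1% of their UMIs. Without the top cell of each group, Hist1h3g was at 0.817.

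**Figure D4:**
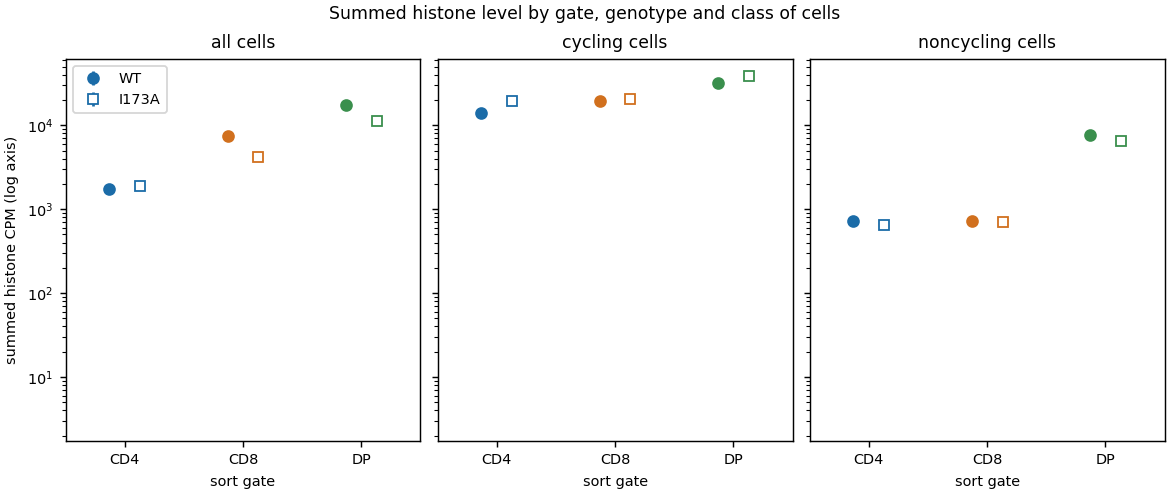
Summed CPM of the 67 histone genes on a log axis by sort gate, for all, cycling-like and noncycling cells; filled circles are WT, open squares I173A, and the exact 95% counting intervals are smaller than most symbols. WT lies above I173A in the DP and CD8 gates over all cells and in the 3 gates over noncycling cells, and I173A lies above WT over cycling cells.

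In cycling-like cells the sums were higher with I173A: 31614 and 38244 CPM in the DP gate (387 and 127 cells; ratio 1.21, 1.20 to 1.22), 14137 and 19263 CPM in the CD4 gate (101 and 66 cells; 1.36, 1.34 to 1.39), and 19423 and 20488 CPM in the CD8 gate (483 and 242 cells; 1.05, 1.05 to 1.06). When a cell was instead called cycling by at least 20 UMIs of G2/M genes per 10000, the DP ratio was 0.647, the CD8 ratio 0.782 and the CD4 ratio 1.21, and with the S-high cluster 13 counted as cycling the CD8 ratio was 0.860. The direction in DP and CD8 cells therefore differed between these definitions. In the DP gate the G2/M rule does not isolate cycling cells, because noncycling DP cells were on average past its cutoff. Their G2/M genes summed to 2780 CPM in WT and 2837 CPM in I173A cells. Noncycling CD8 cells were on average below the cutoff, at 1584 CPM in WT and 1517 CPM in I173A cells. How many of them passed it is not given here, so the CD8 ratio under that rule may include noncycling cells too. The DP ratio under that rule lies close to the ratio over all DP cells and cannot show the direction in cycling DP cells alone. The DP cells lay mostly in cluster 7 (250 WT and 88 I173A cells), where the ratio was 1.21, while clusters 15 and 20 gave 0.788 and 0.757. WT CD8 cells lay mostly in cluster 7 (302 and 71 cells; 0.923) and I173A CD8 cells mostly in cluster 12 (168 and 162 cells; 1.18). By phase group, S-high cells included, CD8 levels were higher with I173A in groups A (28159 and 34226 CPM) and B (19607 and 23264 CPM). They were lower in groups C (15043 and 10120 CPM), E (7936 and 4960 CPM), F and G. In DP cells all 5 H1 genes at the floor had an interval above 1 and the H1 sum was 7130 and 9943 CPM (1.39, 1.37 to 1.42), led by Hist1h1d at 1737 and 2676 CPM (1.54). H2A genes were at 1.22, while the H2B (0.999), H3 (0.969) and H4 (1.01) sums had intervals that held 1. Over the DP members 3 of 61 were 1.5-fold or more higher and 2 lower (4.12% and 5.53% of 9023 genes were): Hist1h1d, Hist2h2bb (1.54) and Hist1h4j (1.52) were the higher, Hist2h2be (0.499) and Hist1h4a (0.517) the lower, and Hist1h2bg was next at 0.702. The interval lay above 1 for 18 DP members and below 1 for 7, where 5.29% and 5.80% of genes did. S phase genes were higher in 30 of 38 and G2/M genes lower in 43 of 52 in the same cells.

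A set of 8 members had an interval above 1 in cycling cells of all 3 gates, where 0.387% of 8272 genes did: the H1 genes Hist1h1c, Hist1h1d and Hist1h1e and the H2A genes Hist1h2af, Hist1h2ai, Hist1h2ak, Hist1h2ao and Hist1h2ap. With cycling called from G2/M UMIs, Hist1h2ai was at 0.959 in the CD8 gate and Hist1h1d at 0.763 in the DP gate. Neither kept its direction there under that rule, which in the DP gate also takes in noncycling cells. In the CD8 gate 1 of 61 members, Hist2h3c1 (1.64), was 1.5-fold or more higher (10.1% of 8941 genes were) and 1, Hist1h4b (0.663), lower (4.97%). The interval lay above 1 for 21 CD8 members and below 1 for 8, where 19.7% and 17.2% of genes did. Hist1h3g (1.44) and Hist1h2ai (1.29) came next among the higher, and Hist2h2be (0.676) and Hist2h2aa2 (0.702) among the lower, the last 2 with intervals that held 1. In the CD4 gate 13 of 60 members were 1.5-fold or more higher (7.71% of 9123 genes were) and 1 lower (7.74%). The interval lay above 1 for 35 CD4 members and below 1 for none, where 4.90% and 4.54% of genes did. The members 1.5-fold or more higher included 9 of 11 H3 genes, whose sum was 1143 CPM in WT and 2435 CPM in I173A cells. A single I173A cell held 36.7% of those H3 UMIs and 54.9% of the UMIs of Hist1h3h, the member with the highest ratio (64.4 and 219 CPM, 3.40). Hist2h2be (2.44) and Hist1h4f (2.33) followed, at no more than 16.2 CPM in either group. Hist1h2bf (0.578), Hist1h2bp (0.686) and Hist1h2br (0.794) were lowest, and their intervals held 1. Without the top cell of each group the CD4 ratio over all members was 1.29.

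**Figure D5:**
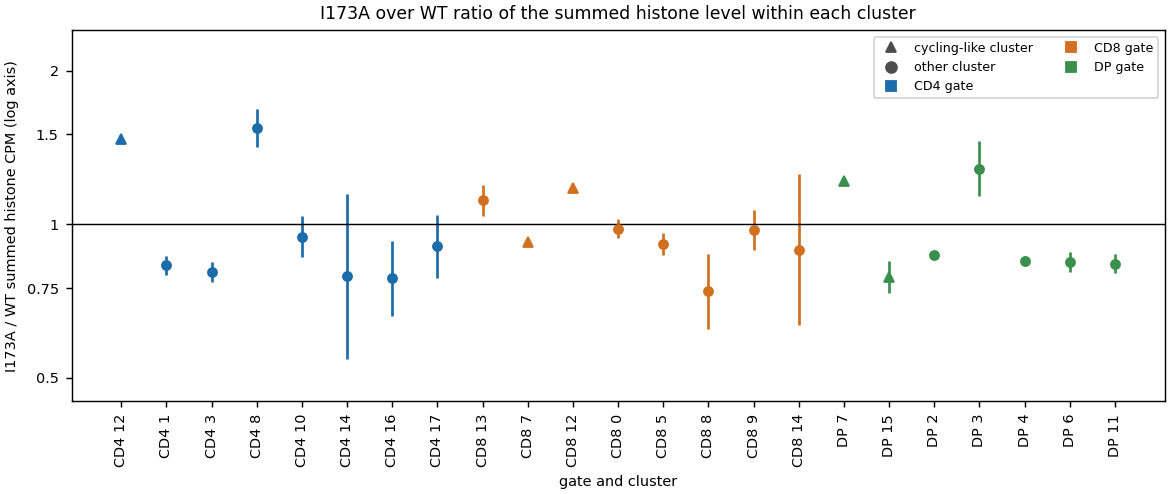
I173A over WT ratio of the summed histone CPM within each cluster of each gate with at least 20 cells of both genotypes, on a log axis, with exact 95% counting intervals; triangles are cycling-like clusters and circles other clusters. DP clusters 2, 4, 6 and 11 lie between 0.837 and 0.870 and DP cluster 7 at 1.21, while the noncycling CD4 cluster 8 lies at 1.54. No cluster ratio was recomputed without its top cells.

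Genes that work beside the histone genes but are not members differed little between WT and I173A noncycling DP cells. Of 10 replacement histone genes at the floor, 4 were higher and 6 lower with I173A, none by 1.5-fold, with a median of -0.01 on the log2 scale against 0.02 over all genes. H3f3b, which codes for the replacement H3, was at 3116 and 2788 CPM (0.895, 0.877 to 0.913), H3f3a at 2080 and 2075 CPM, H2afy at 534 and 527 CPM and H2afz at 486 and 467 CPM. Of 14 genes for histone transcription and mRNA 3′ processing, 9 were higher and 5 lower, none by 1.5-fold. Srrt (0.804, 0.724 to 0.892) and Upf1 (0.870), which act in RNA processing and decay, were lower, while Casp8ap2 (1.01) and Eri1 (1.06) had intervals that held 1. Of 10 histone chaperone genes, 6 were higher and 4 lower, none by 1.5-fold. The same lists differed less between gates than the members: between WT noncycling DP and CD4 cells the median log2 difference was 0.80 for replacement histones, 0.45 for processing genes and 0.29 for chaperones, against 3.68 for the members.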

How the data were processed

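RNA and hashtag reads of thymocytes from 3 sorted gates (CD4 SP, CD8 SP, DP) were counted by the authors. The submitters' processing notes name Cell Ranger 6.0.1 and the mouse build GRCm38 (mm10). The deposited values were whole UMI counts per gene and hashtag and cell barcode, not normalized, with 9081, 9239 and 8670 barcodes. How multi-mapping reads were treated is not stated in the labels.

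A cell was assigned a hashtag with at least 10 counts of it and 4 times each other hashtag; between 4.20% and 5.72% of barcodes carried several and were left out as doublets. Hashtag 4 was read as WT and Hashtag 6 as I173A, and Hashtag 5 was left out of the comparisons. Cells under 500 genes or over 10% mitochondrial UMIs were left out. The 25223 cells were clustered with Scanpy 1.11.5 and leidenalg 0.10.2 (2000 variable genes, 30 components, 15 neighbours, resolution 1), leaving out the 67 histone genes and 652 antigen receptor genes. Phase groups came from clustering cycling and S-high cells on 90 S phase and G2/M genes. The S-high threshold (a median fold of 1.5 over the S list) was set after seeing the data; that cluster, 613 cells of which 609 were in the CD8 gate, counts as noncycling.

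UMIs were summed over the cells of each gate, genotype and class and given as CPM. With 1 sample per group no test was made: ratios carry exact conditional 95% intervals (SciPy 1.17.1), which cover counting error only. A gene passed the floor with a mean of 5 CPM over the groups compared, and 1.5-fold was the threshold for a count. The share of all genes past the same threshold is printed beside each count. The ratio script was tested on simulated counts. The members and lists were chosen with earlier results of these data known. Genes named in the text were the 15 most abundant members, the 3 highest and 3 lowest ratios per gate and class, members with opposite intervals between gates, and up to 4 genes of each list; Hist1h2bg, Hist1h2bc, Hist2h3b, Hist1h4n, Hist3h2ba, Slbp and the H2A and H2B neighbour pairs were partly named after their values were seen. Positions, spans and promoters are from RefSeq (GRCm38.p6), in which 66 of the 67 members matched 1 entry. The alternatives tried were other hashtag rules, no cell filter, other scalings, leaving out the top member or the low-RNA and non-T clusters, and other definitions of cycling, and, chosen after seeing the data, leaving out the top cell, a stricter noncycling class, and equal cluster or phase make-up.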

Additional observations from a re-analysis of the deposited data

Results flagged for a closer look

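For 29 quantities the counting interval of the I173A over WT ratio lay above 1 in one gate and below 1 in another. The value given for each is the highest gate ratio divided by the lowest. The gates are separate libraries with 1 sample per genotype, so these differences between gates were not tested.

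Over all cells the CD4 gate had the highest ratio throughout. The sum of all members gave 1.89, the H1 sum 1.93, the H2A sum 1.96 and the H3 sum 2.26. Among H1 genes Hist1h1a gave 2.96, Hist1h1b 2.39 and Hist1h1e 1.65. Among H2A genes Hist1h2ag gave 2.33, Hist1h2ak 2.16 and Hist1h2ap 2.01. Among H3 genes Hist1h3a gave 2.28, Hist1h3b 2.90, Hist1h3d 4.21, Hist1h3e 1.92, Hist1h3f 1.93, Hist1h3g 4.08, Hist1h3h 4.41 and Hist1h3i 2.33. Single cells carried part of the CD4 ratios of the H3 genes. For each gene the cell with the most UMIs of that gene was left out of each group. Hist1h3a was then at 0.804 and Hist1h3g at 0.817 in all CD4 cells, so neither kept a ratio above 1 there. Hist1h3h was at 1.57 and Hist1h3b at 1.24. The lowest gate was DP for Hist1h3g and Hist1h3h and CD8 for the others.

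In cycling cells the CD4 gate was highest and the CD8 gate lowest for Hist1h2ae (1.25), Hist1h2bk (1.59) and Hist1h3d (2.65), and CD4 was highest and DP lowest for Hist1h3g (2.41), Hist1h3h (4.26), Hist1h4a (3.99) and Hist1h4k (1.90). A single I173A cell held 54.9% of the Hist1h3h UMIs in the CD4 gate, where the ratio without the top cell of each group was 2.46 for Hist1h3h and 0.893 for Hist1h3g, which then lost the opposite direction. DP was highest and CD8 lowest for Hist1h1a (1.87, from ratios of 1.42 and 0.764), Hist1h1b (1.57, from 1.37 and 0.869) and Hist1h4j (1.92). In noncycling cells the CD8 over DP value of Hist1h1c was 1.18.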

How the results depend on the processing

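No paired analysis was possible because each gate and genotype is 1 sample and the labels give no replicate numbers. The values below are I173A over WT ratios of the histone sum unless a member is named. Over 105 alternatives for sums and counts, 66 stayed close to the reported value, 35 moved and 4 changed direction; over 707 alternatives for named members these numbers were 646, 47 and 14. The noncycling ratios stayed below 1 under every alternative run.

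Calling hashtags at 2 times the others gave 1.14 in all CD4, 0.580 in all CD8 and 0.633 in all DP cells, and at least 30 hashtag counts gave 1.11 in all and 1.42 in cycling CD4 cells. Weighting every cell alike gave 0.879 in all, 1.31 in cycling and 0.811 in noncycling CD4 cells, 0.621 in all and 1.01 in cycling CD8 cells, and 0.730 in all and 1.17 in cycling DP cells. Without the most abundant member the ratios were 1.05 in all CD4, 1.02 in cycling CD8, and 0.672, 1.18 and 0.873 in all, cycling and noncycling DP cells. Median-of-ratios size factors gave 1.05, 0.554 and 0.611 in all CD4, CD8 and DP cells. With histone genes allowed in the clustering, cycling CD4 cells gave 1.17 and noncycling CD8 cells 0.925.

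With cycling called from G2/M UMIs, cycling cells gave 1.21 (CD4), 0.782 (CD8) and 0.647 (DP), and noncycling cells 0.845 (CD4) and 0.862 (DP). Under that rule these members changed direction: Hist1h2ai (0.959), Hist1h3h (0.856) and Hist1h4k (0.860) in the CD8 gate, and Hist1h1a (0.686), Hist1h1b (0.669), Hist1h1d (0.763), Hist1h2ae (0.533), Hist1h4j (0.743) and Hist2h2bb (0.768) in the DP gate. With S-high cells counted as cycling, CD8 cycling cells gave 0.860, Hist1h3h 0.958 and Hist1h4k 0.948. The cause of these changes was not tested. Noncycling DP cells were on average past the G2/M cutoff, so the DP values under that rule do not describe cycling cells alone.

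Of the alternatives chosen after seeing the data, leaving out the top cell of each group gave 1.03 in all, 1.29 in cycling and 0.846 in noncycling CD4 cells. For a single member the top cell was the one with the most UMIs of that member. Hist1h3a was then at 0.804 in all CD4 cells, and Hist1h3g at 0.817 in all and 0.893 in cycling CD4 cells. Noncycling CD4 cells with no UMI of 7 proliferation genes gave 0.842. Equal phase group make-up gave 1.16, 1.09 and 1.24 in cycling CD4, CD8 and DP cells. The 5 members past 1.5-fold in all CD4 cells became 3 at a floor of 10 CPM and 1 at 2-fold, and at 2-fold the 50 in CD8 became 12 and the 35 in DP became 7. Depth limits the members: in noncycling SP cells 28 (CD4) and 34 (CD8) of 67 reached the floor.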

Other observations

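Cells with Hashtag 5, to which the labels give no genotype, were left out of the comparisons. Their summed histone level was 648 CPM in noncycling CD4, 674 CPM in noncycling CD8 and 7572 CPM in noncycling DP cells, and 16069, 15725 and 30830 CPM in cycling cells, with 3.57%, 14.6% and 11.7% of cells cycling. In noncycling cells of the CD4, CD8 and DP gates Hist1h2ac was at 9.19, 8.82 and 93.9 CPM, Hist1h2bc at 17.1, 8.82 and 102 CPM, and Hist1h2bg at 10.0, 9.11 and 139 CPM.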
